A study of Homo sapiens with 12 samples.

Results

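The EGF receptor family and its ligands were followed in MDA-MB-231, an established triple-negative human breast cancer cell line, after depletion of the chromatin enzymes HDAC5 or LSD1. The family was taken as 10 genes: the receptor genes EGFR, ERBB2, ERBB3 and ERBB4, and the ligand genes HBEGF, AREG, EREG, TGFA, BTC and NRG1. Its measurements were all probe sets annotated to a single one of these symbols, 26 of the 22215 probe sets on the array and 9 of the 11963 genes. AREG was not analysed here, because no probe set carried its symbol in the annotation used. The members were chosen by gene name, with earlier results of these data known.

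RNA was measured on 12 Affymetrix 3′ expression arrays, 1 per sample, in 4 groups of 3 samples labelled as biological replicates. All cells received lentiviral particles with a short hairpin RNA (shRNA): against HDAC5, a class IIa histone deacetylase; against LSD1, a histone lysine demethylase encoded by KDM1A; or a scramble sequence. The scramble arrays A, B and C carry the LSD1 tag in their labels, and the scramble arrays 1, 2 and 3, which carry none, were taken as the controls of the HDAC5 experiment. All groups are of a single cell line, and neither the hairpins per target nor the time after transduction nor any selection step is stated in the labels used here. Since nothing says that the replicates were separate cultures, the p-values measure the spread between these samples, which may be technical.

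The 4 receptors are tyrosine kinases that signal as homodimers or heterodimers. EGFR binds EGF, TGF-alpha, amphiregulin, HB-EGF, betacellulin and epiregulin, ERBB3 and ERBB4 bind neuregulins, and ERBB2 has no known ligand of its own. The ligands are made as membrane-bound precursors that ADAM proteases release, and bound receptors feed the RAS-ERK and PI3K pathways. Triple-negative breast cancer lines such as MDA-MB-231 are known for abundant EGFR and for lacking ERBB2 amplification.

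The promoters of 4 members whose brightest probe set fell with HDAC5 shRNA are shown because these genes moved together in that comparison. ERBB3 fell as well, but no promoter window was available for it. Each promoter shown is the 250 bases before the gene's annotated start, from RefSeq on GRCh38.p14, written 5′ to 3′ on the strand of the gene. Capitals mark exact matches, on either strand, to the GC box GGGCGG, the AP-1 motif TGACTCA, the CCAAT box CCAAT, the TATA box TATAAA or the E-box CACGTG.
EGFR (chr7:55018767-55019016, plus strand): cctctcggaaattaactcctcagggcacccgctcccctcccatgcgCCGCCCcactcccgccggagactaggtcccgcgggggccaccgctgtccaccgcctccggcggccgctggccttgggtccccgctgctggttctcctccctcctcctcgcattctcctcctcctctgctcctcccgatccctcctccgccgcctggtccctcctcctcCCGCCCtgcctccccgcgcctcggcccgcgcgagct
ERBB4 (chr2:212538803-212539052, minus strand): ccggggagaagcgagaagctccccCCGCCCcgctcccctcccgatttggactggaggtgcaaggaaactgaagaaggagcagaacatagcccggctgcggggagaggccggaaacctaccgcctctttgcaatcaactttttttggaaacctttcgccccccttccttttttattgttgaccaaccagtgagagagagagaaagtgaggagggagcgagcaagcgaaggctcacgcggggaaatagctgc
TGFA (chr2:70553827-70554076, minus strand): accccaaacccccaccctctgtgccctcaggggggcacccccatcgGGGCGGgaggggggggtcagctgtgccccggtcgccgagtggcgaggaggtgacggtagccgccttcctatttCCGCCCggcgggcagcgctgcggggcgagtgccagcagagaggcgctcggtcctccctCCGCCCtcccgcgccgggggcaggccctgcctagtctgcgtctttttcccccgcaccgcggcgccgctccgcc
EREG (chr4:74364895-74365144, plus strand): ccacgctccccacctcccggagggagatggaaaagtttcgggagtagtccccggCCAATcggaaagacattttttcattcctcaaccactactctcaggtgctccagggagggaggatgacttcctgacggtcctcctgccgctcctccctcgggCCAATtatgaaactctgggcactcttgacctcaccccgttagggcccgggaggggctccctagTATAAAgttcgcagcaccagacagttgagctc

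No motif of these 5 was held by all 4 windows. The EGFR window held 2 GC boxes, at -204 and -36 from the start, the TGFA window held 3 and the ERBB4 window 1, against 42.6% of 35116 promoter windows of this length with at least 1. EREG held none of these, but 2 CCAAT boxes (32% of windows hold one) and a TATA box at -32 (10.7% of windows). AP-1 motifs, found in 4.2% of windows, and E-boxes, in 6.34%, were not in these letters. A further EGFR start in the table, downstream of the annotated one, had 2 AP-1 motifs and 2 TATA boxes before it. By base composition EGFR and TGFA were at 73.6% and 75.6% G and C, and ERBB4 and EREG at 57.2% and 58%, where the median window has 58%. These matches are a description of sequence and show no binding.

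All values are log2 signals of single probe sets, so 1 unit is a doubling, and levels of different probe sets are not comparable. Arrays within a group correlated at 0.9983 or more in the HDAC5 experiment and at 0.9907 or more in the LSD1 experiment, and a probe set's SD within a group had a median of 0.069 and 0.070 against 0.106 and 0.127. HDAC5 itself fell by 1.11 with its shRNA (limma adjusted p = 4.72e-05) and KDM1A fell by 3.08 with LSD1 shRNA (adjusted p = 5.42e-05). The 8 genes taken as markers of mesenchymal-like breast cancer lines were VIM, CD44, MSN, AXL, CAV1, TGFBI, PLAU and the keratin gene KRT18. All 8 were above the lower quartile of the probe sets on all arrays. So were 9 of the 10 luminal breast markers, 2 of 5 basal or myoepithelial, 3 of 7 blood, 2 of 6 endothelial and 1 of 6 fibroblast markers. Below it on all 12 were PGR (luminal), KRT14 (basal), PTPRC and LYZ (blood), CDH5 and VWF (endothelial) and LUM and FAP (fibroblast). Signals under that quartile, which was 4.59 to 4.65 on the HDAC5 experiment's arrays and 5.18 to 5.26 on the others, are limited by background, and 4 of the 26 member probe sets were there on all 12 arrays. The mean level of 4 marker lists was lower on all HDAC5 shRNA arrays than on their scramble arrays. The luminal list went from 7.62 to 7.73 down to 7.26 to 7.28, the basal from 5.22 to 5.24 down to 4.92 to 5.09, the endothelial from 4.74 to 4.80 down to 4.56 to 4.66 and the fibroblast from at least 4.46 down to 4.28 to 4.36, while the mesenchymal-like list was higher, from 11.97 to 11.99 up to 12.06 to 12.08. With LSD1 shRNA the basal list was higher, from 5.22 to 5.28 up to 5.47 to 5.62, as were the fibroblast list, from 4.83 to 4.85 up to 5.08 to 5.16, and the blood list, from 5.15 to 5.23 up to 5.29 to 5.34. Fibroblast list means were under the lower quartile on all 12 arrays. Near that quartile were the endothelial means with HDAC5 shRNA and the blood means on scramble arrays A to C. An RNA quality measure also moved with HDAC5 shRNA, the gap between the 3′ and 5′ control probe sets of ACTB, from 0.83 to 0.95 down to 0.59 to 0.73. The part of these in the results below was not tested.

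With HDAC5 shRNA, 3 of the 4 receptor genes and 2 of the 5 measured ligand genes fell on their brightest probe set, and 1 ligand gene rose. The receptor genes that fell were EGFR, ERBB3 and ERBB4, the ligand genes were TGFA and EREG, and the gene that rose was NRG1. ERBB2, HBEGF and BTC did not pass the test. Probe sets were called changed at a limma adjusted p under 0.05 over all 22215. By that rule 13 of the 26 member probe sets changed, 4 up and 9 down, where 38.2% of all probe sets did, 19% up and 19.2% down. Over genes by their brightest probe set the count was 6 of 9 against 43%, with a median change of -0.41 against -0.02 for all genes. Over all 26 member probe sets the median change was 0.03, against -0.01 for all probe sets. In a comparison that touched so much of the transcriptome, the share of members called does not by itself set the family apart.

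With LSD1 shRNA, EGFR fell on its brightest probe set and no other member probe set passed, so 1 of 26 was called where 3.81% of all probe sets were, 2.11% up and 1.7% down. At an unadjusted p under 0.05 there were 13 of the 26, and 4373 of all 22215. The LSD1 shRNA arrays all lay beyond the scramble arrays for 12 of the 26 probe sets, 5 above and 7 below, where 24.5% of all probe sets did so. In the HDAC5 experiment 16 of the 26 did, against 46% of all. The labels do not say whether scramble arrays A, B and C pair with LSD1 shRNA arrays 1, 2 and 3. No paired fit was made for them, so overlaps and calls in the LSD1 experiment are those of an unpaired comparison. Whether these arrays vary in pairs was not tested. The total of changed probe sets in the LSD1 experiment, 847, depended on single arrays: leaving out scramble array A gave 329, B 126 and C 112, and leaving out LSD1 shRNA array 1 gave 189 and array 3 gave 230. When all 12 arrays shared an estimate of the spread, 12 of the 26 member probe sets were called with LSD1 shRNA and 15.7% of all. The 11 gained were 2 of HBEGF (both up), EREG and BTC (up), 2 of TGFA (down), 1 more of EGFR (down), 1 of ERBB2 (down) and 3 of NRG1 (1 up and 2 down). That fit called 24.9% of all probe sets with HDAC5 shRNA, against 38.2% in the fit of 6 arrays.

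**Figure D1:**
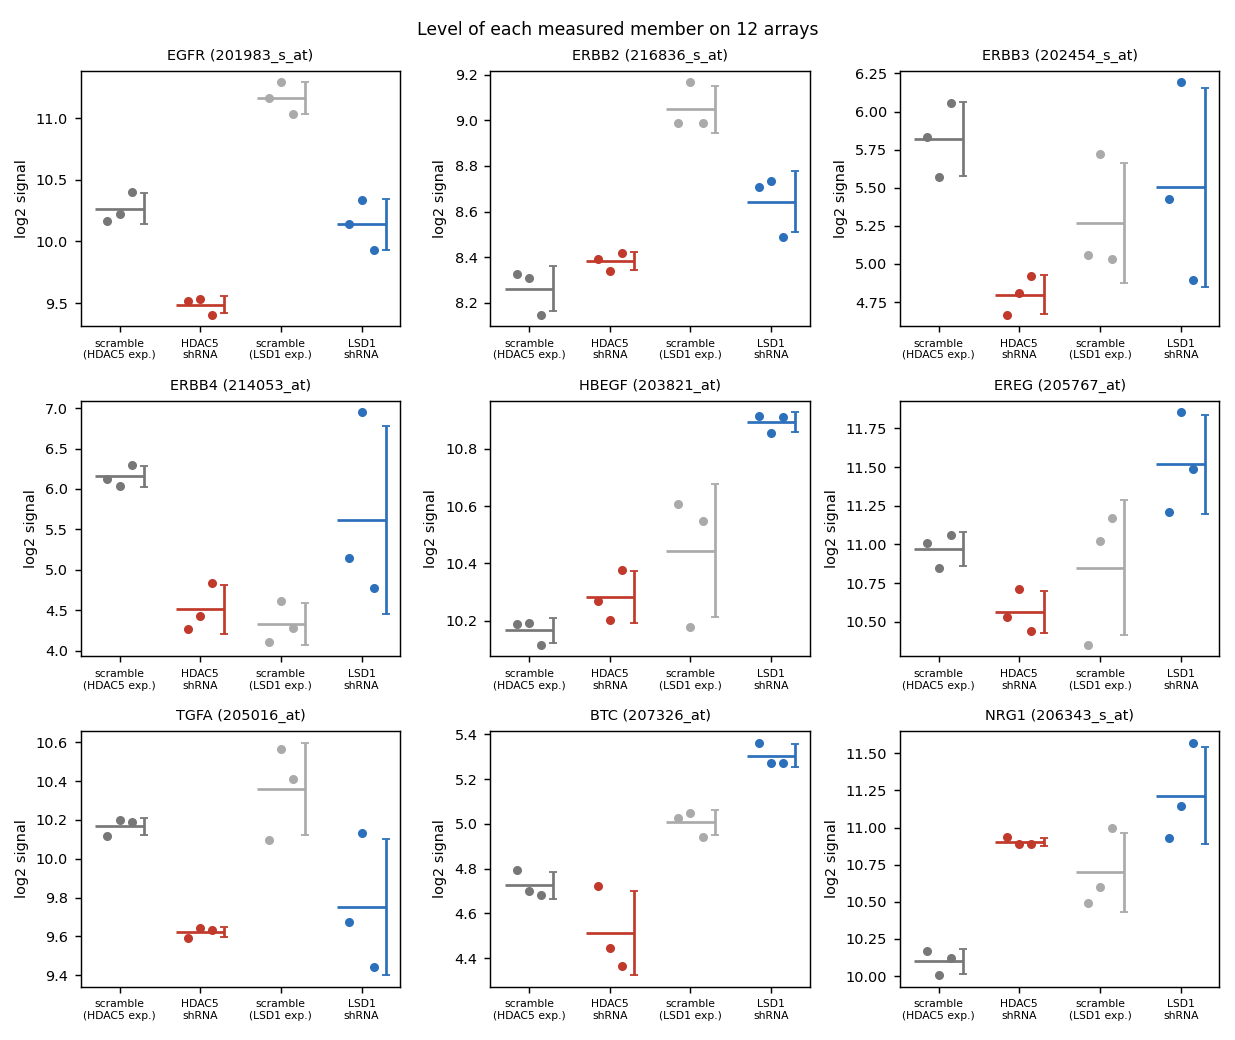
Log2 signal of the brightest probe set of each of the 9 measured genes on the 12 arrays, by group; points are arrays, lines are group means and bars are the SD (n = 3). Vertical axes differ between panels and do not start at 0. EGFR was lower with either shRNA than on all scramble arrays of its experiment, and NRG1 was higher with HDAC5 shRNA.

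EGFR, the receptor for most of these ligands, was measured by 6 probe sets. On the brightest, 201983_s_at, the signals were 10.17, 10.22 and 10.40 on scramble arrays 1, 2 and 3 and 9.52, 9.53 and 9.41 on the HDAC5 shRNA arrays. In the LSD1 experiment the scramble arrays read 11.16, 11.29 and 11.03 (A, B, C) and the LSD1 shRNA arrays 10.14, 10.34 and 9.93. The groups of either experiment did not overlap. The change was -0.78 (SE 0.07, limma adjusted p = 1.67e-05) with HDAC5 shRNA, a 1.71-fold reduction, and -1.02 (SE 0.12, adjusted p = 0.011) with LSD1 shRNA, a 2.03-fold reduction. The LSD1 call was lost without scramble array B (-0.96, adjusted p = 0.0747) or C (-1.09, 0.0604), without LSD1 shRNA array 1 (-1.02, 0.0629), and with both scramble B and LSD1 shRNA 2 left out (-1.06, 0.061), an alternative added once the data had been seen.

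The other EGFR probe sets did not move alike. A second bright one, 201984_s_at, fell by 0.72 (SE 0.07, limma adjusted p = 4.54e-05) with HDAC5 shRNA, and changed by -0.39 (SE 0.11, adjusted p = 0.115) with LSD1 shRNA, where its arrays also did not overlap. Of the remaining sets, 210984_x_at and 211607_x_at fell by 0.42 and 0.37 with HDAC5 shRNA and stood at -0.18 and -0.14 with LSD1 shRNA, the latter values not called. The pair 211550_at and 211551_at did not pass in either comparison, at 0.07 and 0.06 with HDAC5 shRNA and 0.03 and 0.04 with LSD1 shRNA. This pair was the dimmest, with means of 5.52 and 4.95 on scramble arrays 1 to 3 and of 6.07 and 5.60 on A to C. In all, 4 of the 6 fell with HDAC5 shRNA and 1 of the 6 with LSD1 shRNA. The mean of the 6, the dimmest pair included, changed by -0.28 with LSD1 shRNA and did not pass (adjusted p = 0.084). Probe sets of 1 gene can match different transcripts, and an _x_at or _s_at ending marks a set that may hybridise with further transcripts.

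**Figure D2:**
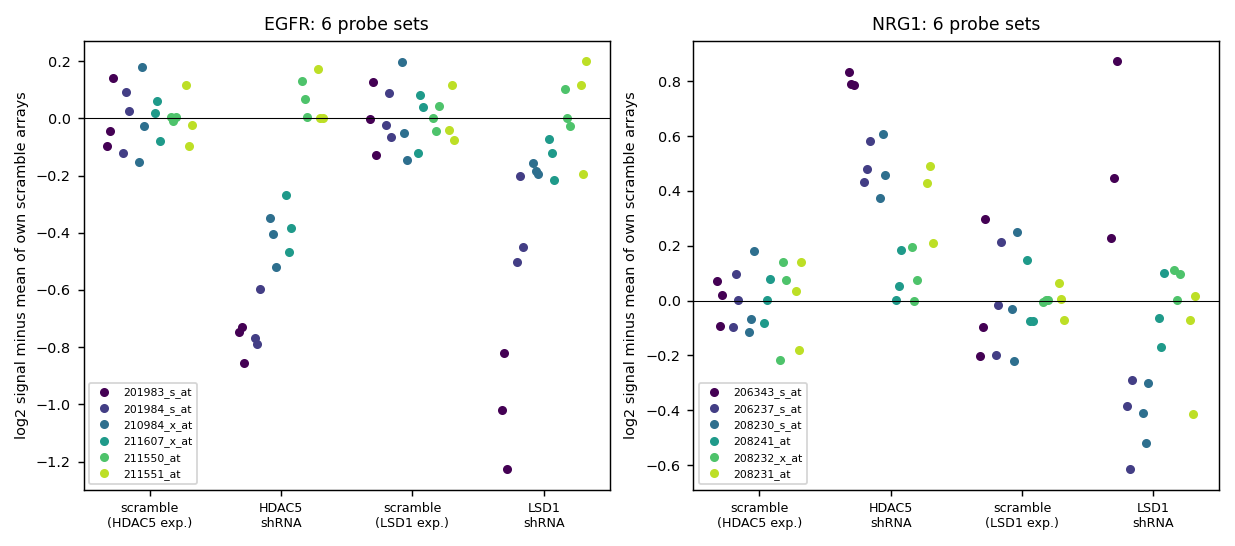
Log2 signal of each of the 6 probe sets of EGFR (left) and of NRG1 (right), minus the mean of the scramble arrays of the same experiment; points are arrays and colours are probe sets, from brightest (dark) to dimmest (light). The 4 brighter EGFR sets were lower with HDAC5 shRNA, and with LSD1 shRNA the NRG1 sets lay on both sides of 0, none of them called.

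ERBB2, the coreceptor without a ligand, gave signals of 8.33, 8.31 and 8.15 on scramble arrays 1, 2 and 3 and of 8.39, 8.34 and 8.42 with HDAC5 shRNA (216836_s_at). The difference was 0.12 (SE 0.06, limma adjusted p = 0.163) and did not pass, although the arrays did not overlap. With LSD1 shRNA the signals were 8.71, 8.73 and 8.49 against 8.99, 9.17 and 8.99, again without overlap and not called (-0.41, SE 0.11, adjusted p = 0.0989). Its other probe set, 210930_s_at, was under the lower quartile on 11 of 12 arrays, and its differences of 0.19 and -0.02 were not called.

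ERBB3, a neuregulin receptor with little kinase activity, fell with HDAC5 shRNA on 202454_s_at, from 5.83, 5.57 and 6.06 to 4.67, 4.81 and 4.92. The groups did not overlap. The difference of -1.02 (SE 0.12, limma adjusted p = 0.00014) is a 2.03-fold reduction. The HDAC5 shRNA values were above but close to the lower quartile of that experiment's arrays (4.59 to 4.65), so this size is not exact. With LSD1 shRNA the arrays read 5.42, 6.19 and 4.89 against 5.06, 5.72 and 5.03, so the groups overlapped, and the difference of 0.23 (SE 0.34) was smaller than the spread. In that experiment scramble A and C and LSD1 shRNA 3 were under the lower quartile. The other ERBB3 probe set was under it on all arrays.

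ERBB4, the other neuregulin receptor, had the largest change of the family with HDAC5 shRNA, on 214053_at. Its signals were 6.12, 6.04 and 6.30 on the scramble arrays and 4.26, 4.42 and 4.84 with HDAC5 shRNA, a change of -1.65 (SE 0.14, limma adjusted p = 1.69e-05). Array values with HDAC5 shRNA were partly in the background range (2 of 3 under the lower quartile), so the 3.13-fold size is not exact. With LSD1 shRNA the same probe set was higher, at 5.14, 6.95 and 4.77 against 4.10, 4.61 and 4.28, and the difference of 1.29 (SE 0.53, adjusted p = 0.241) was not called. All 3 scramble arrays and 2 of 3 LSD1 shRNA arrays there were under the lower quartile. LSD1 shRNA array 2 was far above the other 2, and without it the difference was 0.62 (adjusted p = 0.115). The second ERBB4 probe set, 206794_at, was under the lower quartile on all 12 arrays and did not pass in either comparison.

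Among the ligands, TGFA encodes TGF-alpha, which binds EGFR. Its brightest probe set, 205016_at, fell from 10.12, 10.20 and 10.19 to 9.59, 9.64 and 9.63 with HDAC5 shRNA, a change of -0.54 (SE 0.04, limma adjusted p = 8.64e-06) with no overlap. With LSD1 shRNA it stood at 9.68, 10.13 and 9.44 against 10.10, 10.57 and 10.41, where LSD1 shRNA array 2 overlapped scramble array A, and the difference of -0.61 (SE 0.20, adjusted p = 0.155) was not called. A dimmer set, 205015_s_at, showed no difference with HDAC5 shRNA (0.00, SE 0.07) and one of -0.60 (SE 0.15, adjusted p = 0.0844) with LSD1 shRNA, where the groups did not overlap. Without LSD1 shRNA array 2 both sets were called, at -0.80 and -0.73 (adjusted p = 0.0492 and 0.0463), as was 201984_s_at of EGFR, at -0.48 (0.0424). The remaining set, 211258_s_at, was at -0.22 with HDAC5 shRNA (adjusted p = 0.0483), a call lost without any of 5 of the 6 arrays, the exception being scramble array 3.

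EREG encodes epiregulin, a ligand of EGFR and ERBB4, and had a single probe set, 205767_at. With HDAC5 shRNA it fell from 11.01, 10.85 and 11.06 to 10.53, 10.71 and 10.44, a change of -0.41 (SE 0.08, limma adjusted p = 0.00214), which did not pass when all 12 arrays shared an estimate of the spread (adjusted p = 0.16). With LSD1 shRNA it was at 11.21, 11.85 and 11.49 against 10.35, 11.02 and 11.17. Here the groups did not overlap, but scramble array A was low, and the difference of 0.67 (SE 0.24, adjusted p = 0.196) was not called. Without that array it was 0.42.

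HBEGF, the heparin-binding ligand gene, had 3 probe sets. On 203821_at its signals were 10.19, 10.19 and 10.12 on scramble arrays 1, 2 and 3 and 10.27, 10.20 and 10.38 with HDAC5 shRNA, and the difference of 0.12 (SE 0.05, limma adjusted p = 0.111) was not called. With LSD1 shRNA they were 10.91, 10.85 and 10.91 against 10.61, 10.18 and 10.55, without overlap, at 0.45 (SE 0.12, adjusted p = 0.1005). The set 38037_at gave 0.10 and 0.41 and was not called either. The set 222076_at, lay under the lower quartile on all arrays.

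BTC encodes betacellulin, and its single probe set was near the background range. It stood at 4.79, 4.70 and 4.68 on scramble arrays 1, 2 and 3 and at 4.72, 4.45 and 4.37 with HDAC5 shRNA, overlapping, with a difference of -0.21 (SE 0.10, limma adjusted p = 0.116). In the LSD1 experiment the scramble arrays read 5.03, 5.05 and 4.94 and those with LSD1 shRNA 5.36, 5.27 and 5.27. These did not overlap, and the difference of 0.30 (SE 0.07, adjusted p = 0.0662) was not called. All 3 scramble arrays of that experiment were under the lower quartile.

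NRG1, the neuregulin gene, which makes many isoforms from several promoters and binds ERBB3 and ERBB4, was the member that rose with HDAC5 shRNA. Its brightest probe set, 206343_s_at, went from 10.17, 10.01 and 10.12 to 10.93, 10.89 and 10.89, a change of 0.80 (SE 0.05, limma adjusted p = 1.85e-06) or 1.75-fold. The sets 206237_s_at and 208230_s_at rose by 0.50 (SE 0.07) and 0.48 (SE 0.09), and the dim 208231_at, under the lower quartile throughout, by 0.38 (SE 0.10). In these 4 sets every HDAC5 shRNA array was above every scramble array, and the remaining pair, 208241_at and 208232_x_at, did not pass (0.08 and 0.09). The call of 208231_at was lost without scramble array 2 (adjusted p = 0.0639) or HDAC5 shRNA array 1 (0.0662) or 2 (0.0739).

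With LSD1 shRNA the NRG1 probe sets differed in sign, and none was called. The brightest stood at 10.93, 11.15 and 11.57 against 10.49, 10.60 and 11.00, a difference of 0.52 (SE 0.19, limma adjusted p = 0.207). Its groups overlapped only in that LSD1 shRNA array 1 lay below scramble array C, in a comparison that was not paired. The set 206237_s_at was lower on all LSD1 shRNA arrays, at 7.30, 7.07 and 7.39 against 7.49, 7.67 and 7.90 (-0.43, SE 0.14, adjusted p = 0.149). So was 208230_s_at, at 6.76, 6.66 and 6.87 against 7.15, 6.95 and 7.43 (-0.41, SE 0.14, adjusted p = 0.157).

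**Figure D3:**
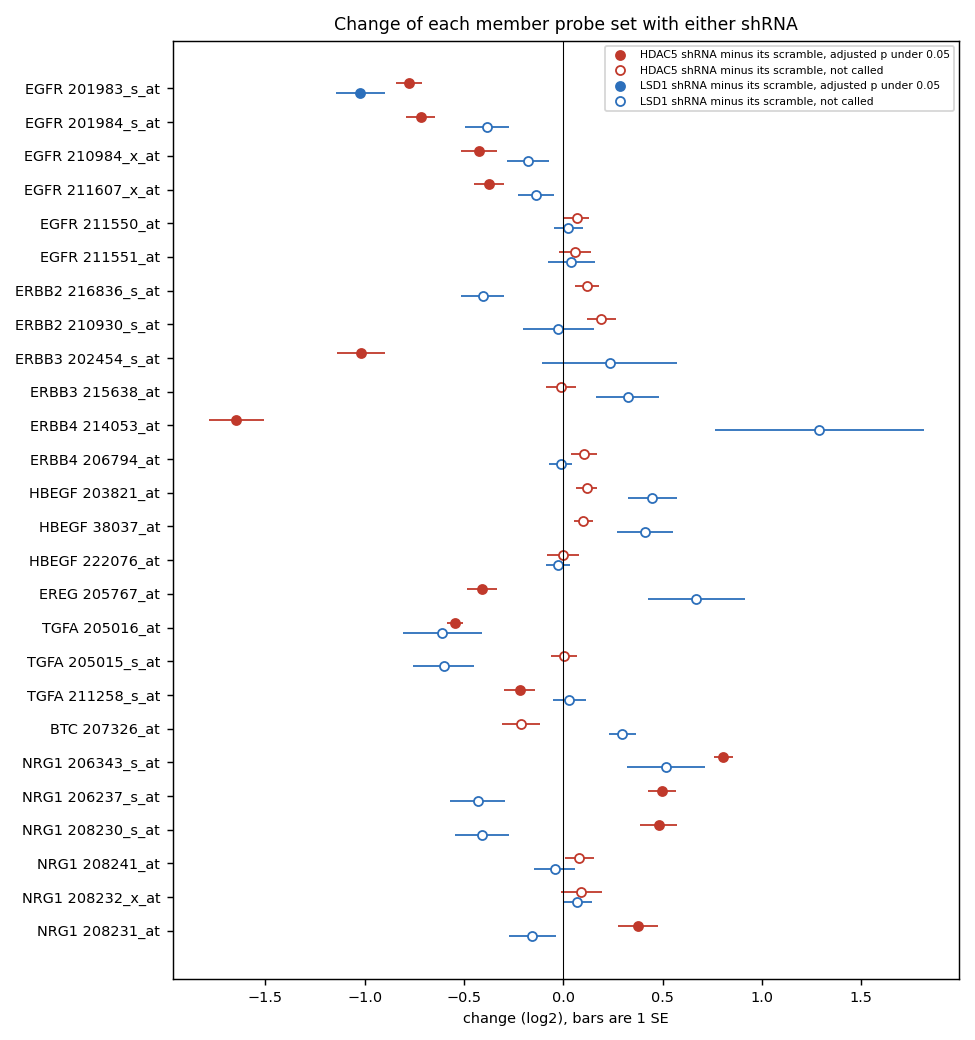
Change (log2) of each of the 26 member probe sets with HDAC5 shRNA (red) and LSD1 shRNA (blue), each against its own scramble arrays; bars are 1 limma SE and filled points have an adjusted p under 0.05. There are 13 filled points for HDAC5 shRNA and 1, of EGFR, for LSD1 shRNA.

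The changes with the 2 shRNAs were then compared with each other in a fit of all 12 arrays, where 26.9% of all probe sets differed, 14.2% with a more positive change with HDAC5 shRNA and 12.7% with a more negative one. Of the member probe sets 9 of 26 differed, in 7 of the 9 genes: more negative with HDAC5 shRNA in ERBB4, ERBB3, EREG and BTC, and more positive in 3 sets of NRG1, 1 of ERBB2 and 1 of TGFA. For ERBB4 (214053_at) the changes of -1.65 and 1.29 differed by -2.93 (SE 0.59, limma adjusted p = 0.00305); with 7 of the 12 arrays under the lower quartile, that size is not exact. For EREG those of -0.41 and 0.67 differed by -1.08 (SE 0.28, adjusted p = 0.012). For NRG1 the set 206237_s_at differed by 0.93 (SE 0.16, adjusted p = 0.00133). In EGFR none of the 6 sets differed, and on the brightest the difference was 0.24 (SE 0.15, adjusted p = 0.268), which does not show that the changes were equal. The 1 member probe set called with both shRNAs was that EGFR set, down in each, where 0.639% of all probe sets were called with both in the same direction and 1.26% in opposite directions.

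The scramble arrays of the experiments also differed for the family, which matters for reading levels across the series. As deposited, the values of the LSD1 experiment were higher by 0.41 at the median of all probe sets, and 18 member sets were higher and 2 lower in that experiment's scramble arrays (63.9% and 11.7% of all). After quantile normalization over the 12 arrays the split was 7 higher and 7 lower (33.9% and 32.3% of all). EGFR on 201983_s_at remained higher in the scramble arrays of the LSD1 experiment, by 0.90 as deposited and 0.53 after that step (limma adjusted p = 0.000938), whereas 201984_s_at differed by 0.15 and -0.20 and did not pass in either. ERBB4 on 214053_at was lower there, at -1.82 and -2.31, with all 3 of these scramble arrays under the lower quartile. Experiment and array batch cannot be told apart in these differences. The gap between the 3′ and 5′ control probe sets of ACTB also differed. It was 0.83 to 0.95 on scramble arrays 1 to 3 and 1.26 to 1.37 on A to C, and its part in these differences was not tested.

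The genes most like 2 family members over the 12 arrays were found by the root mean square difference between values taken relative to the scramble mean of the same experiment, over the 11963 genes. Nearest to EGFR (201983_s_at) were CLGN, a chaperone gene, at 0.15 (log2), GAA, the lysosomal alpha-glucosidase gene, at 0.16, and COL6A2, a type VI collagen gene, at 0.17. Their changes with HDAC5 and LSD1 shRNA were -0.83 and -1.03, -0.79 and -0.87, and -0.73 and -0.89. ERBB4 (214053_at) was taken as the set with the largest difference of the family in both experiments, although that with LSD1 shRNA was not called and was the largest only with LSD1 shRNA array 2 included. Nearest to it were GALNT6 at 0.23, PTGFR at 0.27 and KLRC3 at 0.29. These are likenesses of profile over 12 arrays.

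Genes that act with the family were read from 5 lists, each gene by its brightest probe set. With HDAC5 shRNA, 7 of 15 ligand-shedding genes fell and 0 rose, where 22.4% of all genes fell and 20.7% rose, and the median change was -0.16. ADAM17, the main protease that releases TGF-alpha, amphiregulin and HB-EGF, fell by 0.80 (SE 0.05, limma adjusted p = 4.18e-06), and its 2 further probe sets fell by 0.57 and 0.59. ADAM8, a related protease gene, fell by 0.88 (SE 0.10), although its dimmer set did not pass (0.05), and RHBDF1, which encodes the ADAM17 partner iRhom1, by 0.72 (SE 0.05). The rest that fell were RHBDL1 (-0.65), CD9 (-0.37), ADAM10 (-0.18) and TIMP1 (-0.22), an inhibitor of metalloproteases. The list thus mixes proteases with an inhibitor that fell, and its count gives no direction of shedding. Of the other EGF-like ligands, EGF did not pass (0.12) and NRG2 fell by 0.54 (SE 0.08) on its brighter set, with the dimmer at 0.00. EPGN, NRG3, NRG4 and TDGF1 were not analysed here.

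Of 21 genes of ERK feedback and output, 11 fell and 4 rose with HDAC5 shRNA (median -0.26). Of all genes 22.4% fell and 20.7% rose (median -0.02), which is also the measure for the next list. The largest were the immediate early gene EGR1, by 1.40 (SE 0.06) with a further set at -1.36, IER3, by 1.09 (SE 0.06), and the ETS factor gene ETV1, by 0.79 (SE 0.04), whose 4 further sets fell by 0.46 to 0.89. The ERK phosphatase genes DUSP4, DUSP5 and DUSP6 were among those that fell (-0.26, -0.49 and -0.32), and the AP-1 genes FOSL1 (0.50) and JUN (0.26) among those that rose. SPRY1 (0.25) and ETV4 (0.21) rose as well. Of the other AP-1 genes JUNB fell by 0.65 and FOS was at -0.16, not called. The genes named here from DUSP4 on were picked with their values in view. Among 20 genes of receptor restraint and trafficking, 6 fell and 4 rose (median -0.07). RNF41, a ubiquitin ligase that acts on ERBB3, fell by 1.02 (SE 0.05, limma adjusted p = 9.03e-07), and by 0.60 on a further set. CBLB, which encodes another receptor ubiquitin ligase, fell by 0.52 (SE 0.05), with its dim set at -0.01, while the chaperone gene HSP90AB1 rose by 0.62 (SE 0.03) and by 0.79 on its further set.

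Of 22 adaptor and early signalling genes 6 rose and 7 fell with HDAC5 shRNA (median -0.02), where 20.7% of all genes rose and 22.4% fell. HRAS rose by 0.81 (SE 0.06) and the adaptor gene GRB2 by 0.54 (SE 0.07), while the kinase gene JAK1 fell by 0.51 (SE 0.04). The other genes of that list were not analysed here. With LSD1 shRNA few genes of these lists were called, against 2.65% of all genes up and 1.8% down: 1 shedding gene rose and 1 fell, 1 signalling gene fell, 1 restraint gene rose, and none of the ERK output genes or other ligands passed. ADAM19 rose by 0.73 (SE 0.11, limma adjusted p = 0.02), with its dimmer set at -0.03 not called, and ADAM9 fell by 0.69 (SE 0.13, adjusted p = 0.0422). The PI3K subunit gene PIK3R1 was at -0.48 (adjusted p = 0.0442), with further sets at -0.26 and -0.11 not called, and HSP90AB1 at 0.22 (adjusted p = 0.0467), with its further set at 0.16 not called. ADAM12 was called on a dim set alone (-1.22, adjusted p = 0.0416) and stood at -0.41, not called, on its brightest.

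**Figure D4:**
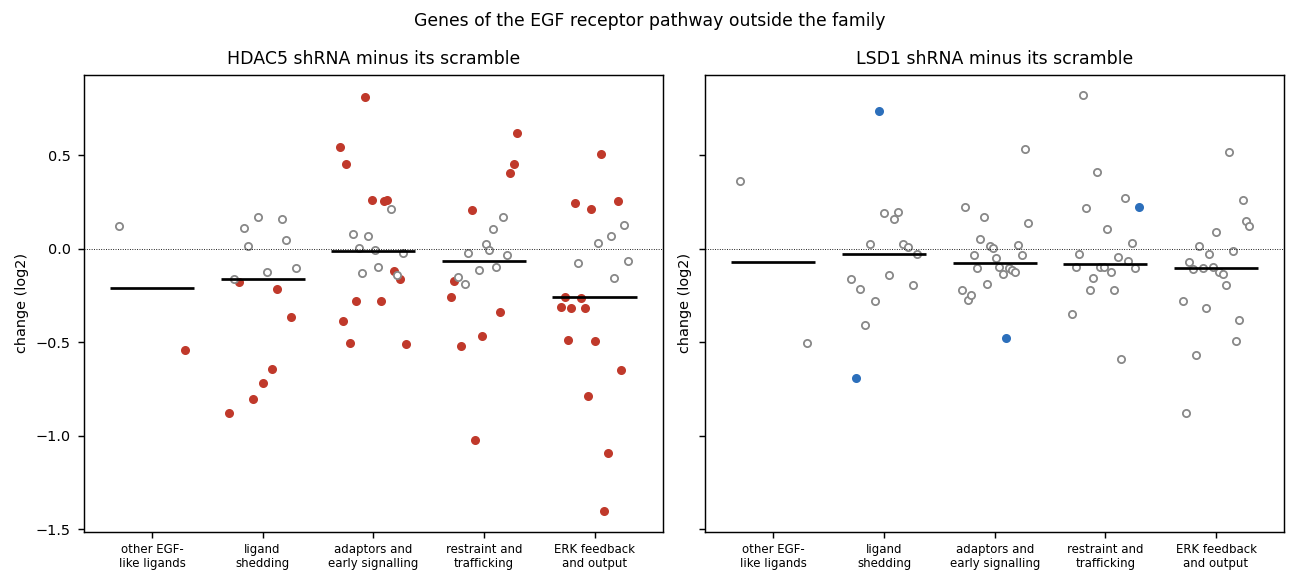
Change (log2) of each gene of the 5 pathway lists, by its brightest probe set, with HDAC5 shRNA (left) and LSD1 shRNA (right); filled points have a limma adjusted p under 0.05, open points do not, and lines are list medians. With HDAC5 shRNA the filled points of the shedding list all lie below 0.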

How the data were processed

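The authors' deposited table holds log2 values per probe set, made with RMA in the affy package per the submitters' processing notes; their versions, and whether the 12 arrays were handled as 1 set, remain unstated. RMA equalises array distributions, which hides any shift common to most transcripts. Array medians were 6.58 to 6.64 in the HDAC5 experiment and 7.05 to 7.15 in the LSD1 experiment, so each shRNA was compared with its own scramble arrays. The 12 columns matched 12 samples, and 62 control probe sets were left out.

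Of 22215 probe sets 19064 had 1 symbol, 1043 several and 2108 none; gene IDs gave current symbols from RefSeq GRCh38.p14 (19052 matched). Each comparison was fitted with limma 3.58.1 in R 4.3.3 (lmFit, eBayes with a mean-variance trend), on 6 arrays or, for differences between changes, 12. P-values were adjusted by Benjamini-Hochberg over all probe sets, with 0.05 as the threshold. SE is limma's moderated SE. The code was tested on simulated data.

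The members, pathway lists and markers were chosen with earlier results of these data known. Named were all members, the targeted genes, up to 3 called genes per list and shRNA, and 3 nearest genes for EGFR and for the largest changes. The remaining shedding genes that fell with HDAC5 shRNA were named as well. Alternatives were quantile normalization, a filter on dim probe sets, no trend, 1 value per gene (brightest or mean), a 12-array fit, a replicate block and leaving out arrays. Promoters of 8 members were in the RefSeq table. The number of arrays limits the precision.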

Additional observations from a re-analysis of the deposited data

Results flagged for a closer look

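Of the 26 member probe sets, 9 changed differently with HDAC5 shRNA than with LSD1 shRNA by a test of the difference itself (limma on 12 arrays), where 26.9% of all probe sets did. The change with HDAC5 shRNA minus that with LSD1 shRNA was -2.93 for ERBB4 (214053_at), -1.25 for ERBB3 (202454_s_at), -1.08 for EREG (205767_at) and -0.51 for BTC (207326_at). It was 0.93, 0.89 and 0.53 for the NRG1 sets 206237_s_at, 208230_s_at and 208231_at, 0.61 for TGFA (205015_s_at) and 0.53 for ERBB2 (216836_s_at). For the ERBB2, TGFA and BTC sets neither change alone passed the test. The ERBB3 difference was lost on leaving out any 1 of 7 arrays (scramble 1, 3, A or C, or an HDAC5 shRNA array), with adjusted p of 0.0502 to 0.0772. That of 208231_at was lost without scramble 1, 2, A or B, HDAC5 shRNA 1 or 2, or LSD1 shRNA 2, with adjusted p of 0.0562 to 0.087. ERBB4 kept its call without LSD1 shRNA array 2 (-2.27, adjusted p = 3.26e-05).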

How the results depend on the processing

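No member result reversed: of 1024 pairs of a member result and an alternative, 972 stayed on the same side of the threshold, 32 lost a call and 20 gained one, and in 38 of the 972 the sign differed with no call either way. The total of changed probe sets with HDAC5 shRNA, 8489, was 5539 in 1 fit of 12 arrays, and 5319 or 5130 genes with the brightest or the mean probe set, where fewer features are tested. With LSD1 shRNA, 847 became 3485 in 1 fit of 12 arrays, 112 to 1062 when single arrays were left out, and 91 without scramble B and LSD1 shRNA 2 together. Differences between the changes numbered 5973 probe sets, or 3803 and 3744 genes, and differences between the scramble sets 16804 probe sets, or 9102 and 9326 genes. Same-numbered arrays of the HDAC5 experiment did not deviate together (correlations -0.05, -0.21 and -0.14). Arrays of different numbers stood between -0.01 and 0.16, and 3 arrays per group cannot settle whether any were handled together. With the replicate block 7621 probe sets were called, 12 of them members, the lost one being 211258_s_at of TGFA. No such check or block was made for the LSD1 experiment. Dim probe sets limit ERBB4, ERBB3 and BTC.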

Other observations

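Probe sets of the same gene were also set against each other within each array, for pairs chosen after their values were seen. The NRG1 set 206343_s_at exceeded 206237_s_at by 3.01 ± 0.08 (log2; SD, n = 3) on scramble arrays A to C and by 3.96 ± 0.29 with LSD1 shRNA, a shift of 0.95 without overlap (exact permutation p = 0.1, two-sided, the smallest that 3 against 3 allows). With HDAC5 shRNA the shift was 0.31, from 3.03 ± 0.18 to 3.34 ± 0.10 (exact permutation p = 0.1). Against 208230_s_at the shifts were 0.93 with LSD1 shRNA (exact permutation p = 0.1) and 0.33 with HDAC5 shRNA, where the groups overlapped (exact permutation p = 0.2). The EGFR set 201983_s_at exceeded 201984_s_at by 1.57 ± 0.05 on scramble arrays A to C and by 0.93 ± 0.13 with LSD1 shRNA, and by 0.83 ± 0.13 and 0.77 ± 0.17 in the HDAC5 experiment. The gap between the TGFA sets 205016_at and 205015_s_at changed by -0.55 with HDAC5 shRNA, from 4.00 ± 0.05 to 3.45 ± 0.02, and by -0.01 with LSD1 shRNA. For HBEGF the 2 bright sets kept a difference of 0.30 ± 0.01 and 0.31 ± 0.04 in the HDAC5 experiment and of 0.34 ± 0.10 and 0.38 ± 0.03 in the LSD1 experiment.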
